A study of Mus musculus with 11 samples.

Results

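Transcripts of respiratory complexes II, III, IV and V were described in hearts of female mice with a model of polycystic ovary syndrome (PCOS), a hormonal disorder of the ovary with metabolic and vascular features, and in hearts of control mice. The members were the rows of the deposited expression table whose gene symbol starts with Sdh, Uqcr, Atp5, or Cox followed by a digit, or is Cyc1, with a mean level of at least 1 FPKM (fragments per kilobase, a read count divided by transcript length and library total) over the 11 samples. This gave 57 genes of 21878 rows: 8 of complex II, 9 of complex III, 25 of complex IV and 15 of complex V. Among them 44 encode subunits and 13 encode assembly factors, which help to build a complex without being part of the finished enzyme. The rule matched 59 rows before the minimum. Cox7b2, at a mean of 0.39 FPKM, and Cox8c, listed at 0 in every sample, lay below it, and the members just above it were Cox16 at 1.32, Cox4i2 at 4.87 and Cox6b2 at 4.95 FPKM. Atp5c1 and Atp5mpl, which encode further subunits of complex V, were not among the matched rows, and 2800 rows carried no symbol. The subunits encoded by mitochondrial DNA were not analysed here.

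The PCOS group held 5 samples from females exposed before birth to anti-Müllerian hormone (AMH), a hormone of the ovarian follicle. The control group held 6 samples from females exposed before birth to phosphate-buffered saline as vehicle. All 11 samples are labelled as heart of wild-type genotype, and no age, strain, litter or batch is given. Whether each sample is a mouse of its own is not stated, so the p-values rest on the spread between samples alone, part of which may be technical.

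The respiratory chain of the inner mitochondrial membrane passes electrons from nutrients to oxygen and uses the energy to pump protons, and ATP synthase uses the returning protons to make ATP. Complex II, succinate dehydrogenase, feeds electrons from the citric acid cycle into the chain, complex III passes them to cytochrome c, complex IV (cytochrome c oxidase) passes them to oxygen, and complex V is ATP synthase. Heart muscle contracts without pause and is among the tissues richest in mitochondria. In several subunits of complex IV it uses isoforms that most other tissues do not.

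Reads over the listed rows, recovered from the steps of the FPKM values, numbered between 11866474 in control replicate 5 and 14346772 in PCOS replicate 3. The median member held 9699 reads per sample, and the members' own medians ran from 39 for Cox6b2 to 87571 for Atp5b. Control replicate 6 stood apart, with a median correlation of 0.962 with the other libraries across rows, against 0.987 to 0.993 in the rest. Its 7 hepatocyte markers summed to 1975 FPKM, against 4.49 to 6.37 in the PCOS samples and at most 12.9 in the other controls. The 8 cardiomyocyte markers in the table summed to between 47770 and 52390 FPKM in PCOS samples and between 42540 and 49420 FPKM in controls, so the labelled tissue showed its defining transcripts in every sample. The 6 macrophage markers in the table, 1 of which was called, summed to 277 to 387 FPKM in PCOS samples and 129 to 249 FPKM in controls. The 5 erythroid markers were all higher in PCOS, with a median log2 difference of 0.75 and none called, and summed to 849 to 2229 FPKM in PCOS samples and 530 to 1528 FPKM in controls. The part of either marker list in the members' values was not tested.

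No member differed between PCOS and control hearts at an adjusted p under 0.05 (limma on log2(FPKM + 1), Benjamini-Hochberg over 10891 tested rows), where 0.138% of all tested rows did. At an unadjusted p under 0.05 (limma) there were 2 members, against 6.68% of all rows. Atp5g1 was higher in PCOS (limma, unadjusted p = 0.0459), as were 3.51% of rows, and Sdhaf3 was lower (limma, unadjusted p = 0.00249), as were 3.17% of rows. Most members were slightly higher in PCOS hearts, 45 of 57 against 50.6% of all rows, with a median log2 difference of 0.10 against 0.002 over all tested rows, but with the dependence on transcript length removed from each sample 23 of 57 were higher and the median was -0.01. In whole tissue, fewer cells of a type and less RNA per cell cannot be told apart.

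By complex, the median log2 difference was 0.13 for complex V (12 of 15 higher in PCOS) and 0.01 with the length trend removed. For complex IV it was 0.11 (20 of 25 higher) and -0.007 with the length trend removed, for complex III 0.10 (9 of 9 higher) and -0.01, and for complex II -0.003 (4 of 8 higher) and -0.08. Whether the complexes differ from each other was not tested. Subunits had a median of 0.11, with 38 of 44 higher, and assembly factors a median of 0.02, with 7 of 13 higher, and both were -0.01 with the length trend removed. The differences of single members ran from -0.32 for Sdhaf3 to 0.21 for Cox17, and their standard errors ran from 0.05 to 0.21. No 95% confidence interval reached below -0.56 or above 0.49 on the log2 scale.

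**Figure D1:**
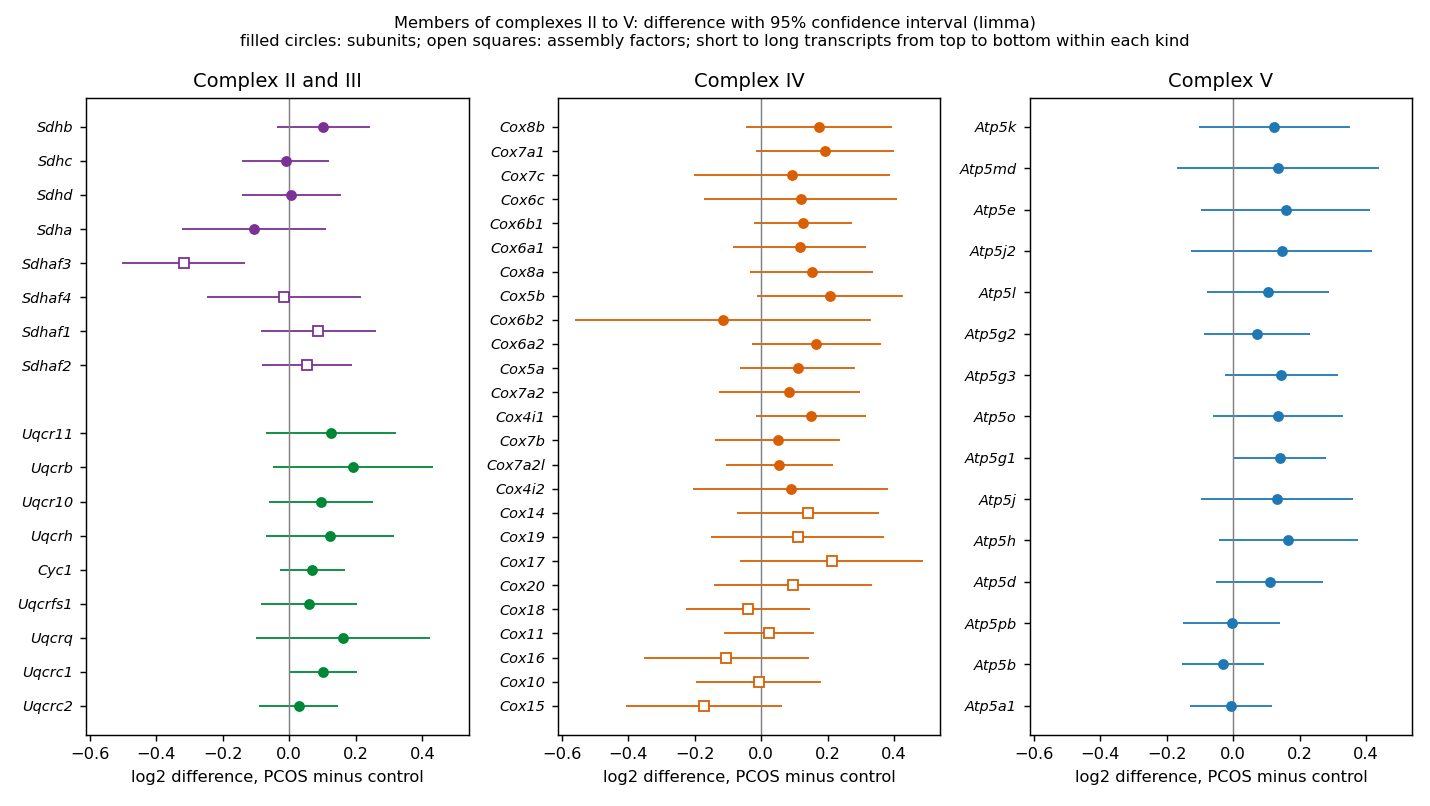
Log2 difference, PCOS minus control, of each of the 57 members with its 95% confidence interval from limma, by complex, with subunits as filled circles and assembly factors as open squares. Sdhaf3 at -0.32 lies farthest from 0, and 45 of 57 points lie above 0, a count that falls to 23 with the length trend removed.

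Members with short transcripts carried the higher values. The 33 members under 1000 bases had a median log2 difference of 0.13, with 30 higher, and the 24 longer members a median of 0.04, with 15 higher, while with the length trend removed the medians were -0.005 and -0.02. The length is the one by which the authors divided, read from the FPKM steps, and it ran from 292 bases for Atp5k to 4798 bases for Cox15. Across the 57 members the Spearman correlation of length with the difference was -0.57, and across all 10891 tested rows it was -0.37, a description over genes that share the same libraries.

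Rows of like length outside complexes II to V showed a like gradient. These other rows still hold further genes of the respiratory chain, among them 35 subunits of complex I with a median length of 681 bases. In rows under 500 bases the median difference was 0.14 for 8 members and 0.11 for 61 other rows. From 500 to under 750 bases it was 0.12 for 17 members and 0.11 for 204 other rows, and from 750 to under 1000 bases it was 0.13 for 8 members and 0.11 for 316 other rows. In these 3 bands the members' medians lay slightly above those of the other rows and inside their quartiles. Among the other rows of at least 100 FPKM the medians of these bands were 0.13 (27 rows), 0.11 (99 rows) and 0.11 (79 rows). The shortest tested row came out at 3 bases, so the lengths in the shortest band are not all reliable. From 1000 to under 1500 bases the median was 0.06 for 10 members and 0.08 for 859 other rows, and from 1500 to under 2500 bases it was 0.03 for 9 members and 0.04 for 2215 other rows. Among rows of 2500 bases and more it was -0.10 for 5 members and -0.03 for 7179 other rows. In all, 33 of 57 members lay above the median of their band, and the median distance from it was 0.02. With the length trend removed, 22 members changed sign and the correlation of length with the difference across members was -0.05.

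**Figure D2:**
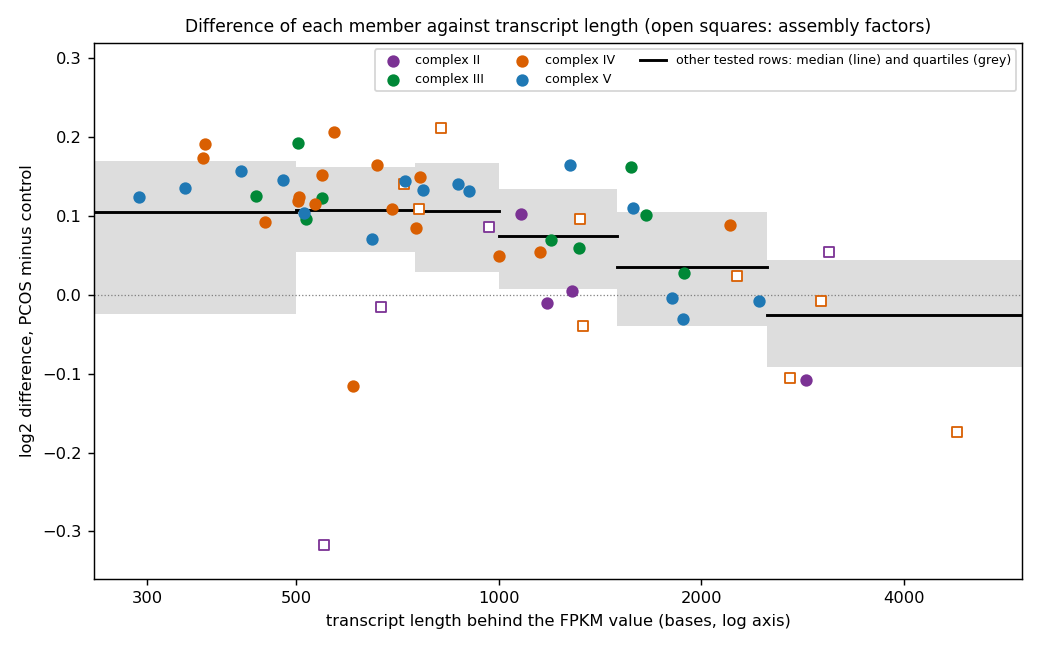
Log2 difference, PCOS minus control, of each member (points, coloured by complex) against the transcript length behind its FPKM value on a log axis. Black lines and grey boxes give the median and quartiles of the other tested rows in each of 6 length bands, and most members lie near those medians, with Sdhaf3 far below its band.

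The same pattern showed sample by sample. As the median deviation of the 57 members from their own row means, on the log2 scale, the PCOS samples stood at 0.18, 0.08, 0.11, -0.07 and 0.02 and the controls at -0.19, -0.16, -0.006, -0.03, -0.09 and 0.21. PCOS replicate 4 lay below its group and control replicate 6 was the highest of all 11 samples, so the groups overlapped. Other rows under 1000 bases gave 0.16, 0.10, 0.09, -0.07 and 0.01 in PCOS samples and -0.19, -0.18, 0.002, -0.08, -0.15 and 0.27 in controls. The members therefore stood high or low in nearly the same samples as other short transcripts. The members took 5.93, 5.70, 5.87, 5.34 and 5.59% of all reads in PCOS samples and 4.99, 5.17, 5.4, 5.42, 5.33 and 6.09% in controls.

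**Figure D3:**
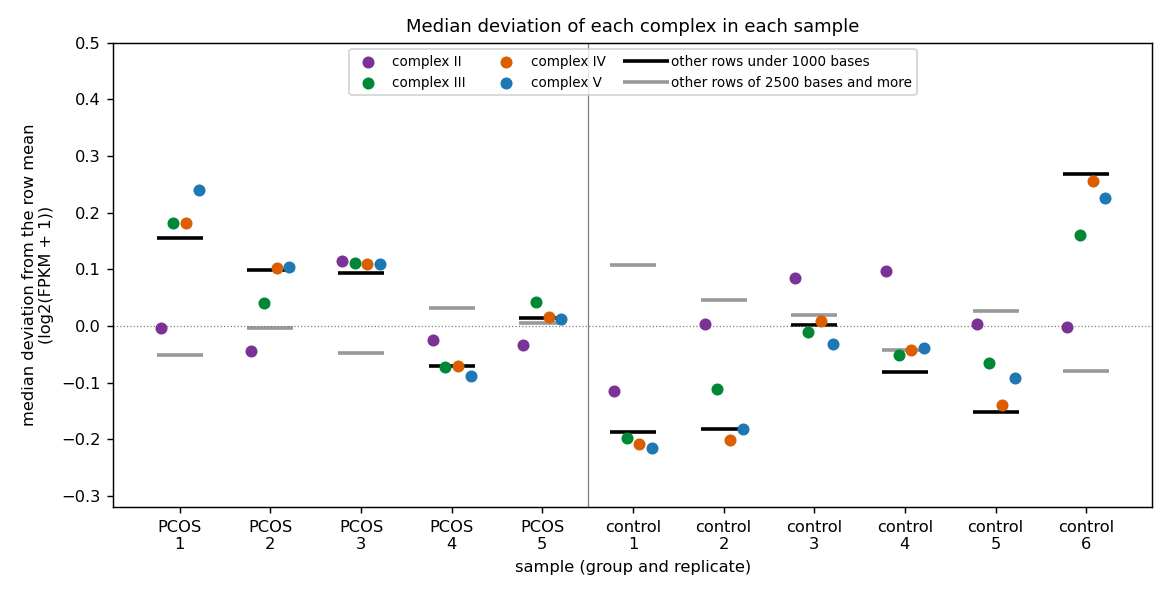
Median deviation of the members of each complex from their row means on the log2(FPKM + 1) scale, in each PCOS and control sample, with black and grey bars for other rows under 1000 bases and of 2500 bases and more. Complexes III, IV and V move up and down with the black bar, and control replicate 6 lies highest for complex IV.

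Control replicate 6 decided how many members passed an unadjusted p. Without it, 33 of 57 members had an unadjusted p under 0.05 (limma), against 19.4% of all rows. Among transcripts under 1000 bases these were 26 of 33 members (78.8%), against 48.2% of the other rows, and among longer transcripts 7 of 24 members (29.2%), against 17.5% of the other rows. Of the 33 members 30 were higher in PCOS, where 9.62% of all rows passed and were higher, and 3 were lower (Sdhaf3, Cox15 and Sdha). None was called (lowest adjusted p = 0.093, limma), and the call rate over all rows was 0.294%. The medians without it were 0.20 for complex V, 0.19 for complex IV, 0.13 for complex III and 0.02 for complex II. By count, 11 of 15 members of complex V, 15 of 25 of complex IV, 4 of 9 of complex III and 3 of 8 of complex II had a p under 0.05 without that library. The median over other rows under 1000 bases was 0.17 without it. The rows compared by length were not matched for level. With the length trend removed as well, 8 of 57 members had a p under 0.05 (limma), against 13.3% of all rows. This combination was chosen after the data were seen.

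Complex II had no common direction. Its catalytic subunits are Sdha, the flavoprotein that oxidises succinate, and Sdhb, the iron-sulfur protein that takes up the electrons, and Sdhc and Sdhd anchor them in the membrane. Sdhb (chromosome 4, 140961271 to 140979198, GRCm38) was the most abundant member, with 1318, 1159.9, 1135, 1101 and 1182 FPKM in PCOS samples, against a lowest, median and highest of 1025, 1073 and 1251 FPKM in controls. The highest control was replicate 6, and the groups overlapped only because of it and of PCOS replicate 4, which lay below control replicate 4 at 1104 FPKM. The log2 difference was 0.10 (SE 0.06, adjusted p = 0.753, limma), and 0.01 with the length trend removed. Sdha averaged 619.9 ± 57.5 FPKM in PCOS and 671 ± 93.0 FPKM in controls (SD, n = 5 and 6), with a log2 difference of -0.11 (SE 0.10). Sdhc averaged 546 ± 27.9 FPKM in PCOS and 550.0 ± 36.8 FPKM in controls, and Sdhd averaged 549 ± 48.2 FPKM in PCOS and 547 ± 37.4 FPKM in controls. The group means of Sdha, Sdhc and Sdhd differed by less than the SD of either group. For Sdha control replicate 6 was the lowest control, at 512 FPKM. Without that library the log2 difference of Sdha was -0.18 (unadjusted p = 0.0286, adjusted p = 0.206, limma). With all samples and the length trend removed, the difference of Sdha was -0.11.

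The assembly factors of complex II were expressed at far lower levels than its subunits. Sdhaf4, which acts on Sdha after flavin is bound, averaged 63.1 ± 4.46 FPKM in PCOS and 64.5 ± 11.2 FPKM in controls (SD, n = 5 and 6). Sdhaf2, needed for the attachment of flavin to Sdha, averaged 23.8 ± 1.11 FPKM in PCOS and 22.9 ± 1.68 FPKM in controls. Sdhaf1, which aids the insertion of iron-sulfur clusters into Sdhb, had 42.7, 45.3, 47.1, 39.4 and 46.2 FPKM in PCOS samples, against a lowest, median and highest of 36, 40.3 and 47.7 FPKM in controls. The groups overlapped over nearly their whole range, and the log2 difference of Sdhaf1 was 0.09 (SE 0.08, adjusted p = 0.809, limma), which became -0.01 with the length trend removed.

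Sdhaf3 (chromosome 6, 6955971 to 7039661, GRCm38), another assembly factor for the iron-sulfur subunit as known from yeast and flies, lay on the other side of 0 from 30 of the 33 members under 1000 bases. It had 14.7, 16.6, 18.9, 14.6 and 15.8 FPKM in PCOS samples, against 19.2, 19.9, 20.5, 20.2, 24.4 and 17.7 FPKM in control samples. Only control replicate 6, the lowest control, lay within the PCOS range, below PCOS replicate 3. Without it every PCOS sample lay below every control, as in 1.85% of all rows. The log2 difference was -0.32 (SE 0.09, 95% confidence interval -0.50 to -0.13), with an adjusted p of 0.565 over all rows (limma), and the median of rows of its length was 0.11. A median of 138 reads per sample lay behind these values. With the length trend removed the difference was -0.45 (adjusted p = 0.73, limma), and without control replicate 6 it was -0.35 (adjusted p = 0.093). With both changes together, a combination chosen after the data were seen, it was -0.55 (SE 0.09, adjusted p = 0.0235) and Sdhaf3 was the one member called, where 0.156% of all rows were called. No other member was called in any of the 23 alternatives tried.

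**Figure D4:**
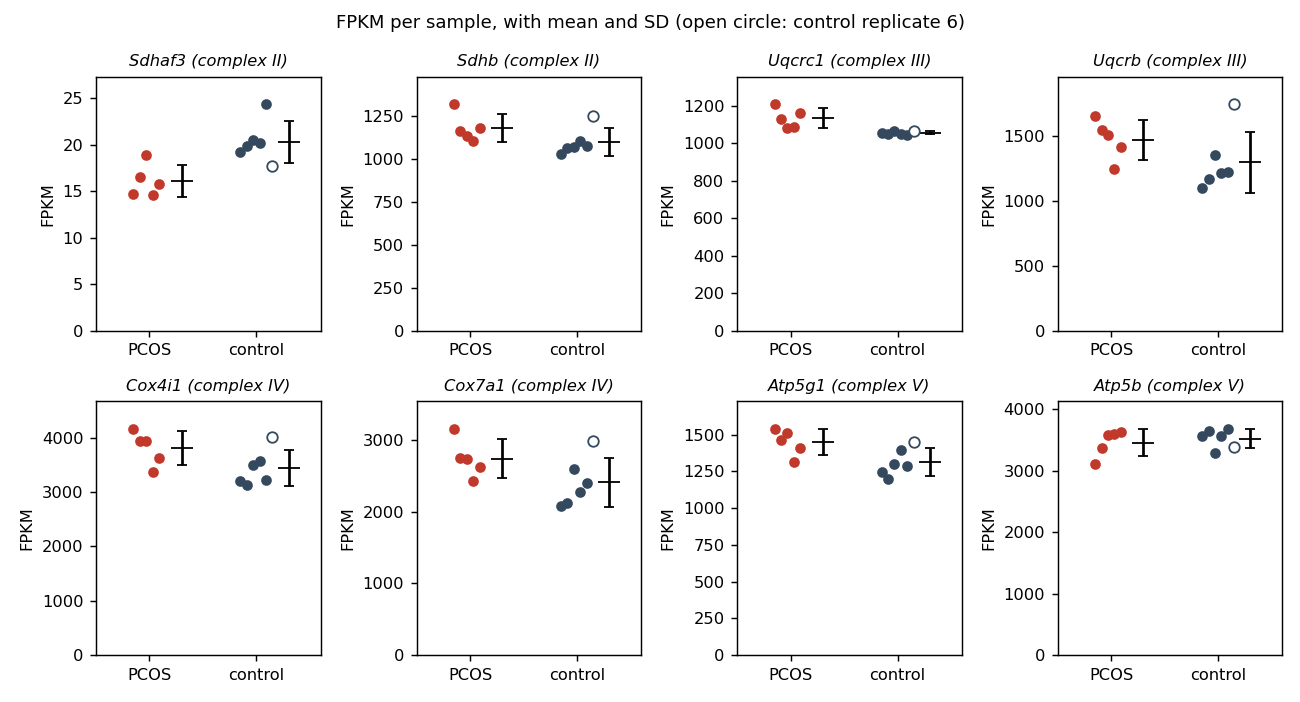
FPKM in each PCOS and control sample for 8 members of complexes II to V, from 0, with the mean and SD of each group beside the points and control replicate 6 as an open circle. For Sdhaf3 control replicate 6 alone lies within the PCOS range, for Uqcrc1 every PCOS sample lies above every control, and for the other 6 genes the groups overlap.

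The promoter of Sdhaf3 is shown because this gene had the lowest difference of all members. It is the stretch from 250 bases before to 50 bases after an annotated start in RefSeq (GRCm38.p6, chr6:6955768-6956067, plus strand), and the capitals mark a match to the motif of the factor NRF1 (GCGCA, any base, then GCGC) and one to the ETS motif read by GABPA (CCGGAAG). That start lies after the first base of the gene span given above, 6955971.
Sdhaf3 promoter: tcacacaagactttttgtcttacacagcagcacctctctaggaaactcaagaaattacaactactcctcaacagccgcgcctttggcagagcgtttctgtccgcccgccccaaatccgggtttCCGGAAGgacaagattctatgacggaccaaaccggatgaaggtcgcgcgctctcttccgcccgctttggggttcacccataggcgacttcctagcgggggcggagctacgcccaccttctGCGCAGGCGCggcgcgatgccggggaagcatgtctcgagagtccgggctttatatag

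Complex III was the one complex in which every member was higher in PCOS, 9 of 9, although with the length trend removed only 3 of 9 were. Uqcrc1 (chromosome 9, 108936648 to 108949641), a core protein of the matrix arm, had 1209, 1129, 1083, 1086 and 1165 FPKM in PCOS samples, against a lowest, median and highest of 1046, 1055 and 1066 FPKM in controls. Every PCOS sample lay above every control, which held for 0.45% of all tested rows and for no other member, while no member had every PCOS sample below every control, as 0.248% of rows did. The controls were unusually close together (1057 ± 8.20 FPKM, SD, n = 6), while PCOS samples averaged 1134 ± 53.6 FPKM (n = 5). The log2 difference was 0.10 (SE 0.05, adjusted p = 0.738, limma) and 0.05 with the length trend removed. The other core protein, Uqcrc2, averaged 623 ± 33.7 FPKM in PCOS and 610.5 ± 28.0 FPKM in controls, with a log2 difference of 0.03 (SE 0.05).

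The electron-carrying subunits of complex III differed little. Cyc1, cytochrome c1, had 999.5, 959, 987, 935 and 1001 FPKM in PCOS samples, against a lowest, median and highest of 912, 926 and 963 FPKM in controls. PCOS replicate 4 lay among the controls, and so did PCOS replicate 2 because control replicate 6 was higher. The log2 difference of Cyc1 was 0.07 (SE 0.05, adjusted p = 0.757, limma) and -0.01 with the length trend removed. Uqcrfs1, the Rieske iron-sulfur protein, averaged 853 ± 42.6 FPKM in PCOS and 821 ± 72.6 FPKM in controls (SD, n = 5 and 6), a log2 difference of 0.06 (SE 0.07).

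The small subunits of complex III had log2 differences between 0.10 and 0.19, with standard errors of 0.07 to 0.12. Uqcrh, the hinge protein near cytochrome c1 and the most abundant member of the complex, had 1855, 1668, 1930.3, 1521 and 1560.0 FPKM in PCOS samples, against a lowest, median and highest of 1317, 1553 and 1818 FPKM in controls. Its log2 difference was 0.12 (SE 0.09, adjusted p = 0.777, limma), with signs turned under quantile normalization (-0.020) and with the length trend removed (-0.005). Uqcrb, which lies near the ubiquinone-binding site, had 1656, 1550.0, 1514, 1246 and 1416 FPKM in PCOS samples, against a lowest, median and highest of 1098, 1219 and 1749 FPKM in controls. For both genes PCOS replicate 4 was the lowest PCOS sample and control replicate 6 the highest control, and the groups overlapped. The log2 difference of Uqcrb was 0.19 (SE 0.11, adjusted p = 0.752), and 0.06 with the length trend removed. Uqcrq, Uqcr11 and Uqcr10 had log2 differences of 0.16, 0.13 and 0.10, and the last 2 turned to -0.01 and -0.04 with the length trend removed. Uqcrq overlaps Gdf9 in the annotation and Uqcrh has 2 named pseudogenes, and how reads were split there is uncertain because the counted strand and the treatment of multiply mapped reads are not given in the sources used here.

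Of the 16 subunits of complex IV 15 were higher in PCOS, with a median log2 difference of 0.12, and with the length trend removed 7 of 16 were. Cox4i1 (chromosome 8, 120668225 to 120674209), the regulatory subunit that binds ATP, was the most abundant of all members, with 4169, 3937, 3942, 3370.1 and 3631 FPKM in PCOS samples, against a lowest, median and highest of 3123, 3358 and 4021 FPKM in controls. PCOS replicate 4 lay at the control median and control replicate 6 among the highest PCOS samples. Its log2 difference was 0.15 (SE 0.08, adjusted p = 0.738, limma), and 0.04 with the length trend removed. Cox5b, a zinc-binding subunit on the matrix side, had 2768, 2511, 2333, 2146 and 2400.5 FPKM in PCOS samples, against a lowest, median and highest of 1835, 2005 and 2797 FPKM in controls. Its log2 difference was the highest of any subunit, 0.21 (SE 0.10, adjusted p = 0.738), and 0.08 with the length trend removed, and control replicate 6 was the highest sample. The other nuclear subunits without a paralogue among the members were Cox5a, Cox6c, Cox7b and Cox7c, with log2 differences of 0.11, 0.12, 0.05 and 0.09, each slightly below 0 with the length trend removed. Cox7a2l, a factor known for joining complexes III and IV that the rule counts with the subunits, averaged 242 ± 21.9 FPKM in PCOS and 233 ± 19.6 FPKM in controls (SD, n = 5 and 6).

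The assembly factors of complex IV were mixed, 5 higher and 4 lower of 9. The copper factors Cox17, Cox19 and Cox11 had log2 differences of 0.21 (SE 0.13), 0.11 (SE 0.12) and 0.02 (SE 0.06). Cox17 averaged 338 ± 36.7 FPKM in PCOS and 296 ± 63.9 FPKM in controls (SD, n = 5 and 6), and its range in PCOS, 286 to 389 FPKM, lay within that of controls, 234 to 409.8 FPKM. The enzymes of heme A synthesis were not higher: Cox10 had a difference of -0.007 (SE 0.09) and Cox15 one of -0.17 (SE 0.11, adjusted p = 0.753, limma). Cox15 is the longest member, and it averaged 8.35 ± 0.874 FPKM in PCOS and 9.62 ± 1.57 FPKM in controls. Cox14 and Cox20, which act on newly made catalytic subunits, had log2 differences of 0.14 (SE 0.10) and 0.10 (SE 0.11), Cox18, an insertase of the inner membrane, one of -0.04 (SE 0.09) and Cox16 one of -0.10 (SE 0.11). Cox20 overlaps Hnrnpu, Cox15 overlaps Entpd7, Cox11 overlaps Tom1l1 and Cox16 overlaps 5 genes in the annotation, so reads there may belong to another gene.

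Heart muscle uses muscle isoforms of several complex IV subunits, and these dominated in both groups. Cox6a2, Cox7a1 and Cox8b are the isoforms of heart and skeletal muscle, and Cox6a1, Cox7a2 and Cox8a those of most other tissues. Aligned over the coding sequence (GENCODE M21, GRCm38), 65.3% of the bases of the shorter member were identical for Cox6a2 and Cox6a1, 64.2% for Cox7a1 and Cox7a2 and 55.7% for Cox8b and Cox8a. The coding sequences of the Cox7a and Cox8 pairs are printed to show how far the isoforms have diverged, which bears on whether reads of one could be counted for the other. Capitals mark the longest run of bases that the pair shares, 12 bases for Cox7a1 and Cox7a2 and 10 for Cox8b and Cox8a.
Cox7a1 coding sequence: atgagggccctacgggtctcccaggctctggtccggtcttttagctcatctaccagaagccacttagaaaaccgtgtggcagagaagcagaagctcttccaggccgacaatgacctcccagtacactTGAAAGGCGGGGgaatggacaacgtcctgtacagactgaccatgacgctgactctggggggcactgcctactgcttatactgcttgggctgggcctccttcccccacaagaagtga
Cox7a2 coding sequence: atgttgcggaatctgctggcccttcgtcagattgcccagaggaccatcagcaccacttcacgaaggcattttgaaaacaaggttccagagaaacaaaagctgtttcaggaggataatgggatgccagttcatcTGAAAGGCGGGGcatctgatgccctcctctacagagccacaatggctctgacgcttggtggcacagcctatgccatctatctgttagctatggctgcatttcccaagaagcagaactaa
Cox8b coding sequence: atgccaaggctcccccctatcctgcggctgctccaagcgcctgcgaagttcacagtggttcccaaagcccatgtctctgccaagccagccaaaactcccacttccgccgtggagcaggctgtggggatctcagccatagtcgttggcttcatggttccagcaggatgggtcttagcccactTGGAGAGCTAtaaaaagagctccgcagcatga
Cox8a coding sequence: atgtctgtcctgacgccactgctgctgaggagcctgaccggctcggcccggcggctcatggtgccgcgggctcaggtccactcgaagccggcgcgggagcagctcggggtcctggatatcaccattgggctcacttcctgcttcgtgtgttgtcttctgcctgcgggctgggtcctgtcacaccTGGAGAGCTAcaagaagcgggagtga

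The balance within the pairs passed the test in none of 7 pairs (exact two-sided permutation test over 462 splits, Benjamini-Hochberg over the 7 pairs, smallest p the design allows 0.00216). The ratio of Cox6a2 to Cox6a1 averaged 17.5 in PCOS and 16.9 in controls, a difference of 0.05 in log2 ratio (exact p = 0.21, adjusted p = 0.49). The ratio of Cox7a1 to Cox7a2 was 3.63, 3.32, 3.21, 3.55 and 3.75 in PCOS samples and 3.16, 3.27, 3.30, 2.92, 3.50 and 3.29 in controls. PCOS samples lay higher on average, by 0.11 in log2 ratio, with overlap of the groups (exact p = 0.0758, adjusted p = 0.49). The ratio of Cox8b to Cox8a averaged 7.31 in PCOS and 7.20 in controls (exact p = 0.781, adjusted p = 0.926). Its difference of 0.02 in log2 ratio rested on PCOS replicate 1 and was -0.03 without that sample.

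**Figure D5:**
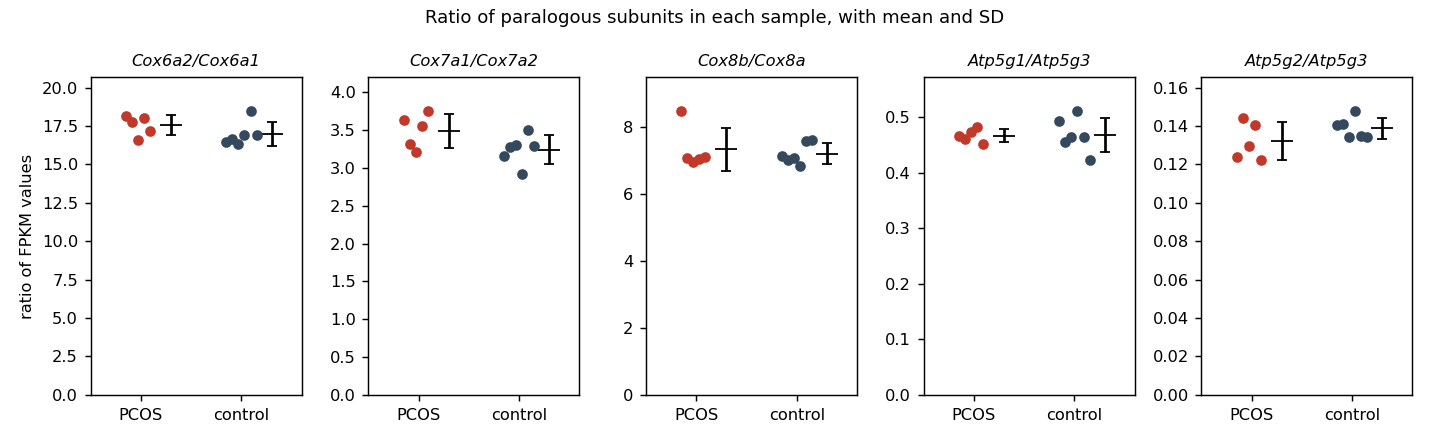
Ratio of the FPKM values of paralogous subunits in each PCOS and control sample, from 0, with the mean and SD of each group beside the points. The groups overlap in all 5 panels, and PCOS replicate 1 stands alone at 8.47 for Cox8b over Cox8a.

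By level, the muscle isoforms were among the most abundant members. Cox6a2 had 4110.1, 3923, 3533, 3325 and 3570.1 FPKM in PCOS samples, against a lowest, median and highest of 3006, 3134 and 4212 FPKM in controls. Without control replicate 6, which gave the highest value, every PCOS sample lay above every control for Cox6a2, as for Uqcrc1, and 1.7% of all rows showed this. Its log2 difference was 0.17 (SE 0.09, adjusted p = 0.742, limma), and 0.05 with the length trend removed. Cox6a2 overlaps Itgad in the annotation. Cox7a1 had 3160.5, 2752, 2742, 2423 and 2627 FPKM in PCOS samples, against a lowest, median and highest of 2078, 2337 and 2985 FPKM in controls, a log2 difference of 0.19 (SE 0.10, adjusted p = 0.738). Cox8b had 2796, 2350.3, 2501, 2068 and 2207 FPKM in PCOS samples, against a lowest, median and highest of 1849, 2056 and 2658 FPKM in controls, a log2 difference of 0.17 (SE 0.10, adjusted p = 0.752). In both genes PCOS replicate 1 was the highest sample, control replicate 6 the next, and the groups overlapped. With the length trend removed the differences were 0.04 for Cox7a1 and 0.02 for Cox8b.

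The isoforms of other tissues were lower in level by the ratios above. Cox7a2 overlaps Gm51685 and Tmem30a in the annotation. Cox6a1 had 226, 221, 213, 185 and 208 FPKM in PCOS samples, against a lowest, median and highest of 166, 190.5 and 249 FPKM in controls. Cox7a2 had 871, 829.6, 855, 683 and 701 FPKM in PCOS samples, against a lowest, median and highest of 651, 733 and 907 FPKM in controls. Cox8a had 330.1, 332, 359, 294 and 311 FPKM in PCOS samples, against a lowest, median and highest of 259.7, 286 and 349 FPKM in controls. In all 3 genes PCOS replicate 4 was the lowest PCOS sample and the groups overlapped. Their log2 differences were 0.12 for Cox6a1 (SE 0.09), 0.08 for Cox7a2 (SE 0.10) and 0.15 for Cox8a (SE 0.09), and with the length trend removed -0.01, -0.03 and 0.02.

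A further pair of complex IV genes, Cox4i2 and Cox6b2, is hardly expressed in heart. Cox4i2 overlaps Bcl2l1 and Gm32057 in the annotation, so reads there may belong to another gene. The hypoxia and lung isoform Cox4i2 had 5.55, 5.25, 4.75, 3.95 and 5.63 FPKM in PCOS samples, against a lowest, median and highest of 3.36, 4.48 and 7.07 FPKM in controls, and its ratio to Cox4i1 averaged 0.00131 in PCOS and 0.00135 in controls (exact p = 0.812, adjusted p = 0.926). The testis isoform Cox6b2 had 5.74, 3.50, 3.45, 3.3 and 7.82 FPKM in PCOS samples, against a lowest, median and highest of 2.85, 5.35 and 6.63 FPKM in controls, from a median of 39 reads per sample. Its ratio to Cox6b1 averaged 0.00205 in PCOS and 0.00247 in controls (exact p = 0.357, adjusted p = 0.625). The common isoform Cox6b1 had 2349.9, 2121, 2273, 2013 and 2187 FPKM in PCOS samples, against a lowest, median and highest of 1728, 2021 and 2229 FPKM in controls. The groups overlapped in all 3 genes, and the log2 differences were 0.09 for Cox4i2 (SE 0.14), -0.12 for Cox6b2 (SE 0.21) and 0.12 for Cox6b1 (SE 0.07), the last at -0.008 with the length trend removed.

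Complex V had the highest median of the 4 complexes, 0.13, but its alpha, beta and b subunits lay near 0, and with the length trend removed the median was 0.01. Atp5b (chromosome 10, 128083307 to 128090388), the catalytic beta subunit and the most abundant member of the complex, had 3111, 3365, 3582, 3600.5 and 3626 FPKM in PCOS samples, against a lowest, median and highest of 3299, 3568 and 3688 FPKM in controls. PCOS replicate 1 lay below every control and the other PCOS samples within the control range. The log2 difference was -0.03 (SE 0.06, adjusted p = 0.9, limma), and 0.007 without PCOS replicate 1. Atp5a1, the alpha subunit of the same catalytic head, averaged 2494 ± 137 FPKM in PCOS and 2506 ± 129 FPKM in controls (SD, n = 5 and 6), a log2 difference of -0.007 (SE 0.06). Atp5pb, the b subunit of the peripheral stalk, had one of -0.004 (SE 0.07). Of the central stalk, the members Atp5d and Atp5e had log2 differences of 0.11 (SE 0.07) and 0.16 (SE 0.12). Atp5d overlaps Cbarp in the annotation.

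The rotor of complex V is a ring of c subunits, and Atp5g1, Atp5g2 and Atp5g3 encode the same mature protein with different import sequences. Atp5g3 was the most abundant of the 3, with 3309.7, 3169, 3199.8, 2723 and 3128 FPKM in PCOS samples, against a lowest, median and highest of 2528, 2751 and 3431 FPKM in controls. Its log2 difference was 0.15 (SE 0.08, adjusted p = 0.742, limma), and 0.03 with the length trend removed. PCOS replicate 4 stood below the rest of its group and control replicate 6 above the rest of its own. Atp5g1 (chromosome 11, 96072793 to 96075694) had 1542, 1462, 1513, 1315 and 1413 FPKM in PCOS samples, against a lowest, median and highest of 1200.4, 1295 and 1452 FPKM in controls. Its log2 difference was 0.14 (SE 0.06, adjusted p = 0.738), and 0.04 with the length trend removed, and control replicates 4 and 6 lay within the PCOS range. Atp5g2 had 410.5, 456, 414, 383 and 382 FPKM in PCOS samples, against a lowest, median and highest of 355, 375 and 459.8 FPKM in controls, a log2 difference of 0.07 (SE 0.07, adjusted p = 0.827) that was -0.05 with the length trend removed. The ratio of Atp5g1 to Atp5g3 averaged 0.467 in PCOS and 0.468 in controls (exact p = 0.926). The ratio of Atp5g2 to Atp5g3 averaged 0.132 in PCOS and 0.139 in controls (exact p = 0.162, adjusted p = 0.49, permutation test over the 462 splits).

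The other stalk and membrane subunits of complex V were all higher in PCOS, by amounts within the spread between samples, and Atp5k, Atp5l and Atp5md were lower with the length trend removed. Atp5h, the d subunit of the peripheral stalk, had 1068, 1007, 976, 855 and 922 FPKM in PCOS samples, against a lowest, median and highest of 768, 819 and 1129 FPKM in controls. Control replicate 6 was the highest sample, and control replicate 3, at 888 FPKM, exceeded PCOS replicate 4, at 855 FPKM. The log2 difference was 0.17 (SE 0.10, adjusted p = 0.752, limma), the highest of the complex, and 0.09 with the length trend removed. Atp5o, the protein that joins the peripheral stalk to the catalytic head, had a log2 difference of 0.13 (SE 0.09) and Atp5j, coupling factor 6, one of 0.13 (SE 0.11). The membrane subunits Atp5j2, Atp5k, Atp5l and Atp5md, which are known for a part in the dimers of the enzyme or its membrane sector, had log2 differences of 0.15, 0.12, 0.10 and 0.14, and with the length trend removed 0.01, -0.04, -0.03 and -0.02. Atp5j overlaps Gabpa, and Atp5k and Atp5l have 4 and 2 named pseudogenes, with the same uncertainty about split reads.

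The members' promoters share letters that the choice of members did not use. Nuclear genes of the respiratory chain are known targets of NRF1, of the ETS factor GABPA and of YY1, and in heart also of estrogen-related receptors. Of the 57 members 45 had a promoter in the RefSeq table, from 250 bases before to 50 bases after the start, and both strands were searched. The ETS motif CCGGAAG stood in 21 of 45 members (46.7%), against 9.93% of 27025 promoters of all genes and 20.2% of the promoters of other tested genes. The NRF1 motif stood in 11 members (24.4%), against 5.19% of all genes and 11.8% of other tested genes. The YY1 motif AAGATGGC stood in 5 members (11.1%), against 3.19% of all genes and 5.46% of other tested genes, and the receptor motif TNAAGGTCA in 2 (4.44%), Atp5g3 and Sdhd, against 1.43% of all genes and 0.924% of other tested genes. The muscle factor motif MEF2 stood in 0 members, against 3.7% of all genes and 2.37% of other tested genes. The promoters of Cox8b and Cox8a are printed as an isoform pair that differs in these letters: Cox8a (chr19:7217567-7217866, minus strand) holds 2 matches to the ETS motif, in capitals as read on the other strand, and Cox8b (chr7:140900397-140900696, minus strand) holds no match to any motif searched. A match or its lack in this window is a description of the letters only.
Cox8b promoter: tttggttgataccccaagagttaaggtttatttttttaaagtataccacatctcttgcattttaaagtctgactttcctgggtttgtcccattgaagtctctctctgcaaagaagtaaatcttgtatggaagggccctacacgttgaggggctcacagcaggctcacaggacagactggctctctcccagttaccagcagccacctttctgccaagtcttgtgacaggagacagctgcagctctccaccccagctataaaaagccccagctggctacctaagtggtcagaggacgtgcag
Cox8a promoter: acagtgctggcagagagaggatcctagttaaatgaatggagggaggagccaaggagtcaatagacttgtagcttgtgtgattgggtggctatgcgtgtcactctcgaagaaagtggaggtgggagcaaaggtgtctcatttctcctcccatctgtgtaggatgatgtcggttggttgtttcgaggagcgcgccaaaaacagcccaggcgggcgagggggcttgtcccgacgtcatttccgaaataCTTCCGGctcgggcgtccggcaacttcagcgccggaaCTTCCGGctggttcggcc

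Neighbouring gene groups of the same pathway were described before and after removal of the length trend. Of 35 subunits of complex I, the first complex of the chain, 34 were higher in PCOS and 0 were called, with a median log2 difference of 0.14 over a median length of 681 bases, and of 0.02 with the length trend removed. With that trend removed 24 of 35 were higher. Ndufa11 had a difference of 0.22 (SE 0.09, adjusted p = 0.738, limma) that stayed at 0.20 with the length trend removed, on a transcript of 2661 bases. Of 23 tested assembly factors outside the symbol rule 13 were higher and 10 lower, with a median of 0.05, and of -0.009 with the length trend removed. Of 9 carriers and accessory proteins, such as the phosphate carrier Slc25a3, 6 were higher and 3 lower. Their median was 0.05, and 0.006 with the length trend removed.

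Most genes of the citric acid cycle and most regulators were lower in PCOS, also with the length trend removed. Of 11 tested genes of the citric acid cycle, which feeds complex II, 3 were higher and 8 lower, with a median log2 difference of -0.03 both before and after the length trend was removed. Of 9 tested regulators of mitochondrial genes 2 were higher and 7 lower, with a median of -0.10 over a median length of 8137 bases, and of -0.065 with the length trend removed. Yy1 averaged 12.2 ± 1.2 FPKM in PCOS and 14 ± 0.798 FPKM in controls (SD, n = 5 and 6), a log2 difference of -0.18 (SE 0.07, adjusted p = 0.738, limma). Gabpa averaged 9.16 ± 0.563 FPKM in PCOS and 11.1 ± 2.07 FPKM in controls, a log2 difference of -0.23 (SE 0.11, adjusted p = 0.738). With the length trend removed the difference was -0.20 for Yy1 and -0.20 for Gabpa. Gabpa overlaps Atp5j, which averaged 1212 FPKM in PCOS and 1114 FPKM in controls, and how reads were split there is uncertain. No gene of these lists passed the test.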

How the data were processed

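Poly(A) RNA of 5 PCOS and 6 control heart samples was sequenced. Per the labels' protocols, a mirVana kit was used for extraction and a stranded TruSeq mRNA kit for the libraries. The submitters' processing notes name the build mm10 and, with no settings or counted strand, HISAT2 2.2.1, HTSeq 0.13.5, DESeq2 1.18.1, R 3.4.1, Trimmomatic 0.38 and FastQC 0.11.9. The authors deposited FPKM values, one per gene model and sample, which divide reads by transcript length and by the library's total over the listed rows. These values were used without rescaling. Levels are therefore relative within a library, and a tilt with transcript length between libraries passes into them.

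Samples were grouped by title. Row accessions were matched to symbols and positions in a RefSeq table of GRCm38.p6: 13175 by versioned accession and 5903 by another version, 87.2% of rows in all. FPKM values of a row lie on steps of 1 read. From these steps whole reads came out in every sample for all 15939 rows above 0 in 3 samples or more, within 0.000172 of a whole number, which gave depth and length.

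Differences were tested with limma 3.58.1 in R 4.3.3 (lmFit and trended eBayes) on log2(FPKM + 1). Rows needed a mean of 1 FPKM or more, with Benjamini-Hochberg adjustment over all 10891. This scale understates the change of low genes. A gene is called at an adjusted p under 0.05. The procedure was tested on simulated data. Each simulated row was drawn independently of the others, with no length tilt and no library that stands apart. It called 12% of rows given a 1.2-fold change, 75.5% of rows given a 1.5-fold change and 0.113% of unchanged rows. Changes near 1.2-fold were thus mostly missed in the simulation. Because the real libraries differ in these points, the shares need not hold for them. Length was compared in 6 bands, and the length trend was removed per sample with a lowess curve (span 0.3). Isoform ratios were tested with an exact permutation test over samples (scipy 1.17.1). Full values are given for the most abundant subunit and the 3 members with the smallest p in each complex, the isoform pairs and Cyc1. The members and lists were chosen with earlier results of these data known. The alternatives were another pseudocount, other filters, median-ratio scaling, quantile normalization, the length trend, voom on the recovered reads, sample weights, the replicate block, leaving samples out and a robust prior.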

Additional observations from a re-analysis of the deposited data

Results flagged for a closer look

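Of 136 groups of values examined for a sample far from its neighbours, 12 held one, where chance gives about 1 in 20, or 6.8. The measure is the distance of the end sample from the next one as a share of the group's range on the log2 scale, and it has to pass 0.71 for 5 samples and 0.625 for 6. In 6 of the 12 the sample was control replicate 6, the highest control in each.

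Cox6a2 stood at 4212 FPKM in control replicate 6, against 3006 to 3296 FPKM in the other controls (share 0.727). Atp5o stood at 2488 FPKM there, against 1767 to 1957 FPKM (share 0.702), and Cox7c at 2405 FPKM, against 1282 to 1579 FPKM (share 0.669). Atp5g3 stood at 3431 FPKM there, against 2528 to 2801 FPKM (share 0.664), Atp5j2 at 2800.4 FPKM, against 1686 to 2021 FPKM (share 0.643), and Sdhb at 1251 FPKM, against 1025 to 1104 FPKM (share 0.630). The same library had the highest median of other rows under 1000 bases and held the hepatocyte transcripts given above, whose part in these values was not tested.

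Among PCOS samples, Cox16 stood at 0.754 FPKM in replicate 5, against 1.31 to 1.37 FPKM in the others (share 0.916), and Atp5g3 at 2723 FPKM in replicate 4, against 3128 to 3309.7 FPKM (share 0.711). Sdhaf2 stood at 25.7 FPKM in PCOS replicate 3, against 23.1 to 23.6 FPKM in the others (share 0.769), and the median deviation of complex II was 0.114 in that sample, against -0.044 to -0.004 (share 0.751). The ratio of Cox8b to Cox8a was 8.47 in PCOS replicate 1, against 6.96 to 7.09 in the other PCOS samples (share 0.903). The ratio of Cox6a2 to Cox6a1 was 18.5 in control replicate 5, against 16.4 to 16.9 in the other controls (share 0.715).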

How the results depend on the processing

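No member was called in 22 of 23 alternatives. With the length trend removed and without control library 6, a combination chosen after the data were seen, 1 member was called. The number of rows called over the whole table was 15, and became 5 at a mean FPKM of at least 5, 25 with sample weights and 10 to 32 with 1 replicate left out, the 32 without control replicate 6. It was 13 with voom on the recovered reads. The labels name no pairing by replicate number, and the correlations of same-numbered deviations were 0.13, -0.03, -0.12, 0.25 and 0.10. Differently numbered samples were not compared in this way, so these values cannot decide whether samples were paired. Control replicate 6 has no same-numbered PCOS sample, so a block on the replicate number also takes that library out of the contrast. With this block 25 rows and 0 members were called, and 26 members had an unadjusted p under 0.05, where 18.0% of all rows did. Without control replicate 6 and with no block it was 33 members and 32 rows were called. With sample weights 26 members had such a p, against 18.9% of rows. Without PCOS replicate 4 it was 8 members, against 7.85% of rows, and without control libraries 2, 5 and 6 it was 14, against 10.7%. That last setting was planned, but no reason for the choice of those control libraries is recorded.

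With the length trend removed the median log2 difference moved to -0.083 for complex II and -0.014 for complex III, and without control library 6 as well to -0.123 and -0.031. Under the same pair of settings the sign turned for Atp5g2 (-0.048 and -0.063), Cox6a1 (-0.014 in both), Cox6b1 (-0.008 and -0.051), Cox7a2 (-0.026 and -0.024), Cyc1 (-0.014 and -0.040), Sdhaf1 (-0.011 and -0.017) and Uqcrh (-0.005 and -0.031). Uqcrh also turned under quantile normalization (-0.020), and Cox6b2 with sample weights (0.035). The log2 ratio of Cox4i2 to Cox4i1 turned with the length trend removed (0.022), without control libraries 2, 5 and 6 (0.080) and with the replicate block and without control replicate 6 (0.040 in both), and that of Atp5g1 to Atp5g3 with the length trend removed (0.006). With 1 replicate left out, the difference of Atp5b ran from -0.049 to 0.007. The log2 ratio ran from -0.134 to 0.040 for Cox4i2 to Cox4i1, from -0.033 to 0.021 for Atp5g1 to Atp5g3 and from -0.032 to 0.039 for Cox8b to Cox8a. The cause of these shifts was not tested beyond what each alternative changes. Of the 34 members without full values, 21 changed sign in at least 1 alternative and 0 were called. With medians of 39 reads for Cox6b2 and 47 for Cox16, depth limits these lowest members most.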
